A study of Rattus norvegicus with 6 samples.

Results

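The enzymes that break down amino acids were described in the livers of 6 male Sprague-Dawley rats, an outbred stock, 3 of which had been given only corn oil and 3 of which had been given tris(2-chloroethyl) phosphate, TCEP, daily at 400 mg/kg. TCEP is a flame retardant and plasticiser of the chlorinated phosphate ester type. Every animal was read on its own single-colour array. All rats were bought at 5 weeks of age and ate a basal diet, and the labels give no age at sampling and no other treatment. The treatment protocol gives 9 weeks of dosing, whereas the design text places the measurement at 28 days. The set was chosen by gene name, as 37 enzymes of amino acid breakdown, and a member was measured where a probe matched its RefSeq transcript. This gave 34 members among 27642 genes tested. Uroc1, Gldc and Mut matched no probe and were not analysed here. All 34 were well above background on all 6 arrays, so the filter on dim probes removed none. Values are log2 signals relative to each array's 75th percentile, and a difference is TCEP minus corn oil.

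The liver takes up most amino acids that arrive from the gut and strips their nitrogen for urea, while their carbon skeletons feed glucose, ketone bodies and energy production. Several of the enzymes, such as Tat, Tdo2, Sds and Hal, are known to respond to glucagon, glucocorticoids and dietary protein. Branched-chain amino acids differ from the rest: their keto acids are oxidised in mitochondria by the branched-chain keto acid dehydrogenase complex, built from an E1 decarboxylase with alpha (Bckdha) and beta (Bckdhb) subunits, an E2 transacylase (Dbt) and an E3 dehydrogenase (Dld).

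The 3 arrays per group limit the precision, with a median standard error of 0.17 for a log2 difference over the members and 0.14 over all genes. Corn oil replicates 1 and 3 shared a slide. Corn oil replicate 2 lay alone on another and was scanned 23 days after the rest, and the TCEP arrays lay together on a slide of their own. Slide and treatment cannot be told apart. All 12 hepatocyte markers were measured on all arrays, with summed signals of 7458 to 8253 (in units of the array's 75th percentile) in corn oil and 6839 to 7654 in TCEP. In whole liver, fewer cells of a type and less RNA per cell cannot be told apart.

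The E1 subunits of the branched-chain keto acid dehydrogenase complex had higher means in the TCEP livers, and each was higher in all TCEP animals than in any corn oil animal. No member passed an adjusted p of 0.05 in limma (0 of 34, against 0% of all genes), so these are differences in mean that the test over all genes did not call. At an unadjusted p under 0.05 there were 3 members, all higher with TCEP and all in branched-chain breakdown: Bckdha, Bckdhb and Mccc1. That is 8.82% of the members against 9.2% of all genes, a share near the background. The groups did not overlap in 5 of 34 members, 14.7% against 17.4% of all genes. TCEP was the higher group in all 5, as in 2855 of the 4807 genes without overlap. Thus 14.7% of the members had every TCEP array above every corn oil array, against 10.3% of all genes. Of the 34 members 24 had a higher and 10 a lower mean, with a median difference of 0.03 (0.00 over all genes). The count of 24 was 15 with quantile normalization, 25 with centring on the median and 17 without TCEP replicate 1. A higher mean was found in 50.9% of all genes (51.6% with quantile normalization and 62.1% with centring on the median).

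Bckdha, the alpha subunit of E1, had log2 signals of 3.37, 3.40 and 3.33 in the corn oil livers and 3.69, 3.83 and 3.97 in the TCEP livers. The corn oil values were nearly identical and all TCEP values lay above them. Its mean was 1.38-fold higher, a log2 difference of 0.47 ± 0.11 (SE, 3 animals per group; unadjusted p = 0.00403 and adjusted p = 0.438, limma). Bckdhb, the beta subunit, had 3.92, 3.79 and 3.37 against 4.22, 4.48 and 4.42, again without overlap, with corn oil replicate 3 the lowest. Its mean was 1.60-fold higher, a difference of 0.68 ± 0.17 (SE; adjusted p = 0.464, limma). Each subunit was read by a single probe. With 1 array left out the differences ran from 0.39 to 0.54 for Bckdha and from 0.52 to 0.79 for Bckdhb, and within the earlier scan day, without corn oil replicate 2, they were 0.48 and 0.73.

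Dbt, the E2 core of the same complex, showed no such separation. Its log2 signals were 1.86, 1.31 and 1.72 in corn oil and 1.65, 1.53 and 1.58 in TCEP, so that all TCEP values fell inside the corn oil range. The difference was -0.04 with a 95% interval of -0.425 to 0.35, and its other probes gave -0.06 and -0.08. The intervals of Dbt and Bckdhb (0.27 to 1.08) overlap, and whether the subunits respond differently was not tested. Dld, the E3 subunit that the complex shares with pyruvate dehydrogenase, had 3.42, 3.09 and 3.65 in corn oil and 3.70, 3.77 and 3.88 in TCEP, without overlap. Its difference was 0.39 ± 0.16 (SE; unadjusted p = 0.046, limma) and 0.25 within the earlier scan day. The regulators of the complex, the inactivating kinase Bckdk and the activating phosphatase Ppm1k, had differences of 0.09 ± 0.12 and 0.20 ± 0.41 (SE).

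Beyond the dehydrogenase, Mccc1, the biotin-bearing subunit of the carboxylase of leucine breakdown, had 4.37, 4.15 and 4.30 against 4.60, 4.55 and 4.51. The groups were separate, and the mean was 1.21-fold higher (0.28 ± 0.10, SE; unadjusted p = 0.0274 and adjusted p = 0.521, limma). Within the earlier scan day the difference was 0.22 (unadjusted p = 0.082, limma). Hibadh, which oxidises hydroxyisobutyrate from valine, and Pcca, the biotin-bearing subunit of propionyl-CoA carboxylase, also had all TCEP values above the corn oil values. Hibadh differed by 0.14 ± 0.09 and Pcca by 0.19 ± 0.14 (SE). The Pcca values in TCEP were all between 4.20 and 4.21, whereas corn oil replicate 2 stood at 3.73 beside 4.15 and 4.18. Without that array the Pcca difference was 0.05. Pccb, the partner subunit, and Ivd, which oxidises isovaleryl-CoA from leucine, differed by 0.11 ± 0.09 and 0.07 ± 0.16 (SE) with overlapping groups. In all, 7 of 8 measured branched-chain and propionate members had a higher mean, against 70.6% of all members and 50.9% of all genes. In 5 the groups did not overlap (10.3% of all genes had every TCEP array above every corn oil array). A higher mean was also found in 4 of 4 aminotransferases and 5 of 6 members of glycine, methionine and cysteine breakdown. It was found in 2 of 8 members of histidine, serine, glutamine, proline and lysine breakdown. The count of 7 ran from 6 to 8 with 1 array left out and was 6 with quantile normalization. Bckdha and Bckdhb had an unadjusted p under 0.05 (limma) in all 18 alternatives run, Mccc1 in 11 and Hibadh in 1, with normexp background correction. These alternatives are not all distinct, since scan day as a block gave the same results as leaving out corn oil replicate 2.

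**Figure D1:**
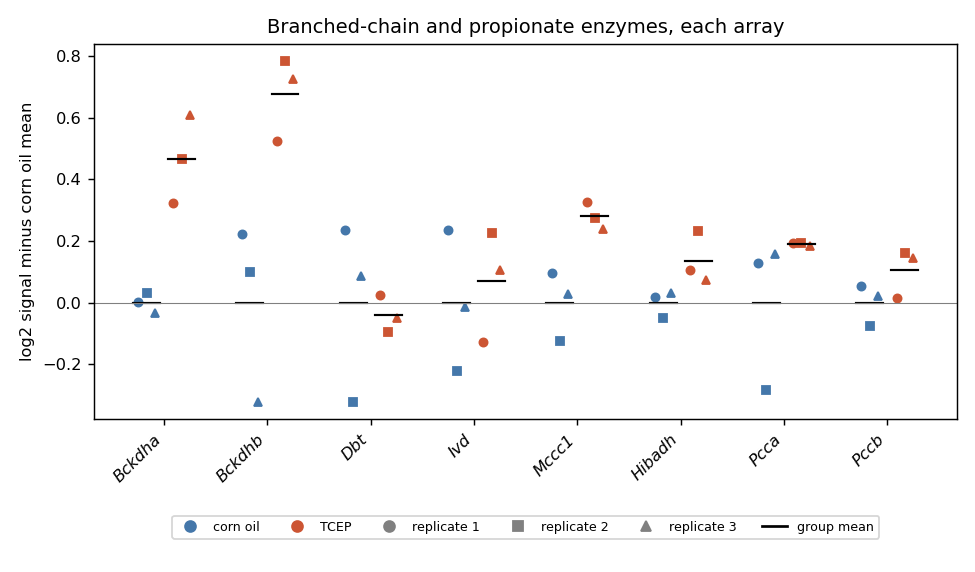
Log2 signal of the 8 measured branched-chain and propionate enzymes on each array, as the distance from the corn oil mean of the gene. Points are animals, with a marker shape per replicate number and a colour per group, and black bars are group means. Bckdha and Bckdhb have all TCEP points above all corn oil points, with mean distances of 0.47 and 0.68, whereas the Dbt points overlap.

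To let the control regions of members with and without a separation be read side by side, the 250 bases before the annotated start are given for Bckdhb and Mccc1, which were separate, and for Dbt, which was not. The sequences are from RefSeq (build GRCr8), 5′ to 3′ on the strand of the gene, with capitals marking the CCAAT box on either strand (CCAAT or ATTGG). They lie at chr8:93725027-93725276 (plus strand), chr2:120779242-120779491 (minus strand) and chr2:207166410-207166659 (plus strand).
Bckdhb: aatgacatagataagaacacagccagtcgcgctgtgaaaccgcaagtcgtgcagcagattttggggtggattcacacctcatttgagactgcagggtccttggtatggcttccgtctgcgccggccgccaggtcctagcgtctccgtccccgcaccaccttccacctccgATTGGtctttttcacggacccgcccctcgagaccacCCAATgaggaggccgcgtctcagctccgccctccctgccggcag
Mccc1: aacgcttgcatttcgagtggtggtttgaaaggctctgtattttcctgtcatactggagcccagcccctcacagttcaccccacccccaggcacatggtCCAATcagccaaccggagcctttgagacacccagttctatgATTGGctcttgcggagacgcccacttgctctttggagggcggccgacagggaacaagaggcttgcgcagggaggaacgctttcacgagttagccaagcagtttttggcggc
Dbt: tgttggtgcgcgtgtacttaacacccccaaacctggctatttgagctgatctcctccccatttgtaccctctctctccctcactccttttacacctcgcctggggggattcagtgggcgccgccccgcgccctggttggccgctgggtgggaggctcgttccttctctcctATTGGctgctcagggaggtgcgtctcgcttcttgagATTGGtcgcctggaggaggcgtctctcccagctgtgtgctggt

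Each of the 3 windows held 2 CCAAT boxes, none held the TATA box TATAAA, and the GC box GGGCGG occurred 2 times in Bckdhb and 1 time each in Mccc1 and Dbt, both strands counted. Of 33469 promoter windows of the same length 34.0% held a CCAAT box, 30.5% a GGGCGG and 12.9% a TATAAA. Among the 33 listed members with an entry, 24 held a CCAAT box, 16 a GGGCGG and 3 a TATAAA. Bckdha had no entry, so no window of it is shown. These matches describe letters in a window and say nothing of a factor bound there.

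The rest of the branched-chain route was drawn up after the values were seen, so its counts are a description. Of 13 further measured genes of that route, 12 had a higher mean (92.3% against 50.9% of all genes), with a median difference of 0.11. The 13 include the carrier Slc25a44 and the regulators Bckdk and Ppm1k. No alternative was run for the count of 12. The 13 genes are counted again below in the lists of other enzymes, carriers and regulators, so those counts are not separate results. Other measured carriers were left out of the 13. Among them Slc43a2 (-0.36) and Slc7a8 (-0.075) had lower means, and Slc43a1 (0.40) and Slc3a2 (0.24) higher ones. Hibch, which frees hydroxyisobutyrate from coenzyme A in valine breakdown, had 0.92, 0.69 and 1.11 in corn oil and 1.24, 1.25 and 1.41 in TCEP, without overlap, a difference of 0.39 ± 0.13 (SE; unadjusted p = 0.0249 and adjusted p = 0.518, limma) that was 0.28 within the earlier scan day. Hsd17b10, which oxidises an isoleucine intermediate, was also separate, at 0.21 ± 0.11 (SE). Acadsb, the dehydrogenase of short branched acyl-CoA, went the other way with separate groups and a small difference, -0.14 ± 0.10 (SE). The summed signals of 2 marker lists of other cells also separated the groups. For bile duct cells the sum of 5 measured markers was 1.22 to 1.55 in corn oil and 1.62 to 2.46 in TCEP. Epcam weighed most in this sum of linear signals, with mean log2 signals of -0.24 in corn oil and 0.28 in TCEP. The group means of the other markers were -1.59 or lower. Epcam and Spp1 were higher at an unadjusted p under 0.05 (limma). Krt19 differed by 0.50, Cftr by 0.01 and Krt7 by -0.27, each with overlapping groups. For stellate cells and fibroblasts the sum of 10 was 40.2 to 43.8 in corn oil and 38.1 to 40.1 in TCEP, with Lrat lower at that threshold. Of these markers 8 had a lower and 2 a higher mean, and Col3a1, the brightest, differed by 0.08. Of the 12 hepatocyte markers 10 had a lower mean and 0 reached that threshold. The part of these cells in the result was not tested. The marker sums of macrophages (86.99 to 216.1 against 128.9 to 151.9) and of endothelium (52.4 to 66.3 against 58.1 to 64.6) overlapped.

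Tyrosine breakdown held the most negative difference of the set. Tat, the aminotransferase that opens the pathway, had log2 signals of 2.72, 2.43 and 3.51 in corn oil and 2.19, 2.59 and 1.46 in TCEP. The groups overlapped in 1 pair, with TCEP replicate 2 above corn oil replicate 2. Its mean was 1.75-fold lower, a difference of -0.81 ± 0.38 (SE; unadjusted p = 0.0754 and adjusted p = 0.574, limma). With the lowest array (TCEP replicate 3) or the highest (corn oil replicate 3) left out the difference was -0.50. It was -1.06 without TCEP replicate 2 (unadjusted p = 0.0385, limma) and -1.04 within the earlier scan day (unadjusted p = 0.0462, limma). The later enzymes of the pathway did not share that direction. Hpd, which makes homogentisate, differed by 0.18 ± 0.10, Hgd, which opens its ring, by 0.03 ± 0.13 and Fah, which cleaves fumarylacetoacetate, by 0.12 ± 0.12 (SE), and none passed.

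Along the kynurenine route of tryptophan no member was separate. Tdo2, the dioxygenase that opens the ring of tryptophan, had 6.37, 6.05 and 7.25 in corn oil and 6.32, 6.63 and 5.82 in TCEP. One corn oil animal, replicate 3, stood high, and without it the difference of -0.30 ± 0.35 (SE) became 0.05. Kmo, which hydroxylates kynurenine, differed by 0.20 ± 0.16, Kynu, which cleaves it, by 0.01 ± 0.19 and Haao, which opens hydroxyanthranilate, by 0.00 ± 0.10 (SE). For Haao the 95% interval of -0.24 to 0.24 bounds any difference at this number of arrays.

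**Figure D2:**
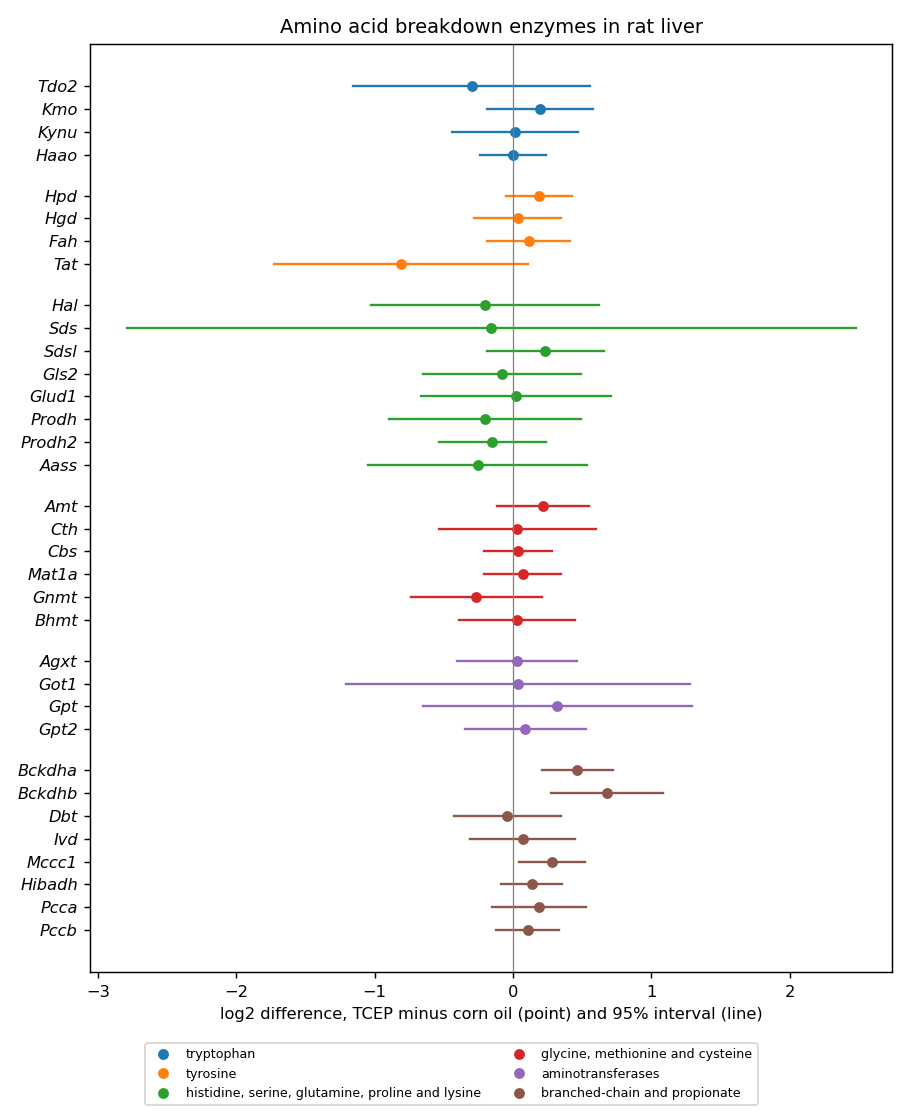
Log2 difference, TCEP minus corn oil, of the 34 measured enzymes, grouped by pathway, with points for the difference and lines for its 95% interval. The intervals of Bckdha, Bckdhb and Mccc1 lie above 0, the other 31 span it, and that of Sds, from -2.79 to 2.48, is the widest.

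Serine dehydratase, Sds, which turns serine into pyruvate, varied more between animals than any other member. Its log2 signals were 0.58, 2.64 and 0.90 in corn oil and 3.36, 1.05 and -0.76 in TCEP. The highest and the lowest values were both in TCEP animals, a 17.3-fold range, while the corn oil range was 4.17-fold. The difference of -0.16 ± 1.09 (SE) was 0.83 without TCEP replicate 3 and -1.23 without TCEP replicate 1, and the second probe gave -0.04 ± 0.48 (SE). Its pooled SD within groups, 1.66, was larger than that of 99.8% of genes. Sdsl, a related serine and threonine dehydratase, was steadier, from 2.79 to 2.99 in corn oil and from 2.85 to 3.46 in TCEP, with a difference of 0.23 ± 0.17 (SE).

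The aminotransferases of aspartate, alanine and glyoxylate all had overlapping groups. Got1, the cytosolic aspartate aminotransferase, had 3.44, 4.74 and 3.99 in corn oil and 5.07, 3.85 and 3.37 in TCEP, a difference of 0.04 ± 0.51 (SE). Within both groups the same animals were highest for Got1 and Sds, corn oil replicate 2 and TCEP replicate 1. Gpt, the alanine aminotransferase, had 4.63, 3.28 and 4.76 against 4.75, 4.59 and 4.30, with corn oil replicate 2 alone at a low value. Its difference was 0.32 ± 0.40 (SE) and -0.15 without that array. Gpt2, its mitochondrial counterpart, and Agxt, which removes glyoxylate, differed by 0.09 ± 0.18 and 0.03 ± 0.18 (SE). Over the members the median SD within groups was 0.23, against 0.18 over all genes, and 7 of 34 members (Sds, Got1, Gpt, Tat, Tdo2, Hal and Aass) exceeded 0.47, the 90th percentile of all genes.

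Enzymes of histidine, glutamine, glutamate, proline and lysine breakdown overlapped throughout. Hal, the histidine ammonia lyase, had 6.63, 6.91 and 5.86 against 6.67, 6.37 and 5.75, with replicate 3 the lowest in both groups (difference -0.20 ± 0.34, SE). Gls2, the liver glutaminase, differed by -0.08 ± 0.24 and Glud1, the glutamate dehydrogenase, by 0.02 ± 0.28 (SE). Glud1 values spanned 6.26 to 7.41 in corn oil and 6.75 to 6.94 in TCEP. Prodh and Prodh2, which oxidise proline and hydroxyproline, differed by -0.20 ± 0.29 and -0.15 ± 0.16 (SE). Within the earlier scan day the Prodh difference was -0.50 (unadjusted p = 0.0389 and adjusted p = 0.571, limma), since corn oil replicate 2, at 5.62, was the lowest array. Aass, which starts lysine breakdown, differed by -0.26 ± 0.32 (SE) and by 0.03 without corn oil replicate 2.

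In the breakdown of methionine, cysteine and glycine all groups overlapped as well. Mat1a, which makes S-adenosylmethionine, ranged from 8.09 to 8.38 in corn oil and from 8.26 to 8.39 in TCEP, and Cbs, which condenses homocysteine with serine, from 5.88 to 5.95 and from 5.81 to 6.06. Their differences were 0.07 ± 0.11 and 0.03 ± 0.10 (SE). Gnmt, which methylates glycine, had 7.18, 7.05 and 7.36 against 7.17, 7.11 and 6.53, so that the difference of -0.26 ± 0.20 (SE) came with TCEP replicate 3 as the low array and was -0.06 without it. Bhmt, which remethylates homocysteine from betaine, and Cth, which releases cysteine, both differed by 0.03 (SE 0.17 and 0.23). Amt, the aminomethyltransferase of glycine cleavage, differed by 0.22 ± 0.14 (SE), and by 0.335 without corn oil replicate 3 (unadjusted p = 0.0308 and adjusted p = 0.393, limma).

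**Figure D3:**
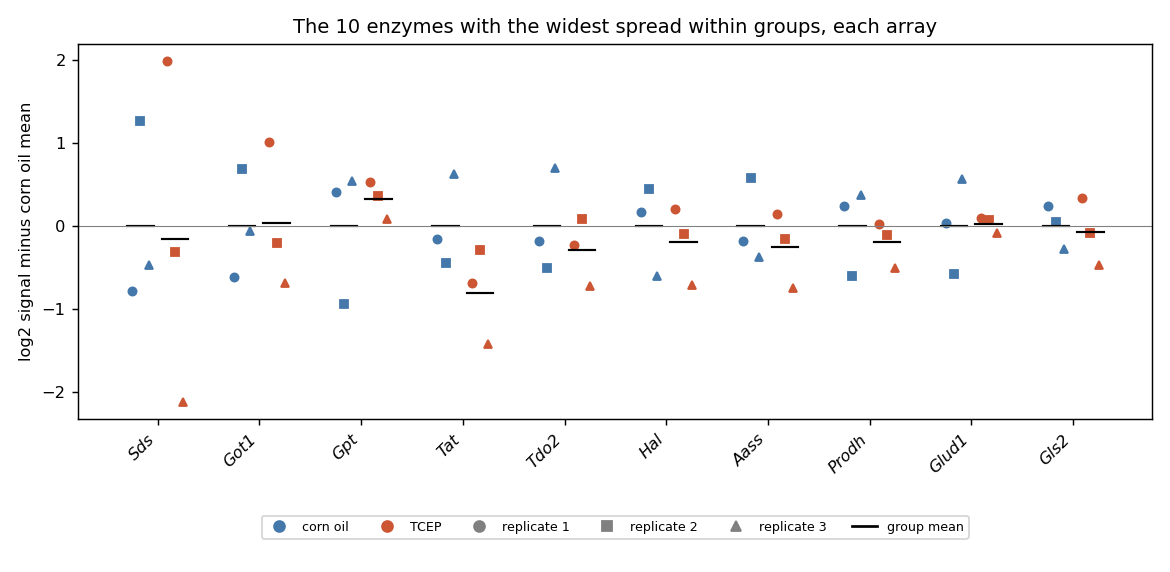
Log2 signal on each array of the 10 enzymes with the largest SD within groups, as the distance from the corn oil mean of the gene. Points are animals, marker shapes are replicate numbers, colours are groups and black bars are group means. Within their groups, TCEP replicate 1 and corn oil replicate 2 are the highest points for Sds and Got1, and TCEP replicate 3 is the lowest TCEP point for each of the 10 enzymes.

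The arrays thus differed among themselves within both groups. Correlations between whole arrays were higher within TCEP (0.9915 to 0.9928) than within corn oil (0.9857 to 0.9884). Pairs of 1 corn oil and 1 TCEP array gave 0.9876 to 0.9911. The corn oil group was split over slides and scan dates, and the TCEP group was not. These correlations therefore do not separate differences between animals from differences between slides or scans. TCEP replicate 3 had the lowest value of its group in 21 of 34 members, against 31.6% of all genes, and replicate 1 the highest in 18 of 34, against 25.3%. In corn oil, replicate 2 was the lowest in 18 of 34, against 34.9% of all genes. These counts are a description, since the members of 1 array share its RNA and its scan. Corn oil replicate 2 also had the fewest probes well above background, 57.2% against 61.6% to 64.4% on the others. It had 40 outlier-flagged spots, against 0 to 9 on the others.

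Among 59 other measured enzymes of amino acid breakdown, of 65 listed, 41 had a higher mean (69.5% against 50.9% of all genes). The median difference was 0.07, and 0 passed over all genes (limma). The list includes the enzymes of the rest of the branched-chain route described above. At an unadjusted p under 0.05 there were 5 higher (5.01% of all genes in that direction) and 1 lower (4.19%). Besides Hibch and Dld, the higher ones included Pipox, a peroxisomal oxidase of pipecolate and sarcosine, and Gcat, which completes a route from threonine to glycine. Pipox had 5.94, 5.48 and 5.72 against 6.26, 6.46 and 5.96, a 1.43-fold higher mean (0.51 ± 0.18, SE), and Gcat differed by 0.31 ± 0.12 (SE). The bright members Pcbd1, which recycles tetrahydrobiopterin, and Ahcy, which hydrolyses S-adenosylhomocysteine, differed by 0.15 ± 0.10 and -0.17 ± 0.15 (SE). The 6 became 2 with quantile normalization, 3 with no filter on dim probes, 3 without corn oil replicate 1, 2 without corn oil replicate 2 and 1 without TCEP replicate 2 or 3.

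Carriers that move amino acids across hepatocyte membranes pointed lower where they were separate. Of 19 measured, of 23 listed, 11 had a lower mean and 6 had every TCEP value below every corn oil value, 31.6% against 7.06% of all genes in that direction. At an unadjusted p under 0.05 there were 4, all lower, against 4.19% of all genes, and 0 passed over all genes (limma). Slc6a13, a carrier of GABA and taurine, had 4.02, 4.04 and 4.02 in corn oil and 3.41, 3.55 and 3.53 in TCEP. The corn oil values were almost the same and lay clear of the TCEP values. Its mean was 1.44-fold lower, a difference of -0.53 ± 0.09 (SE; unadjusted p = 0.00082 and adjusted p = 0.302, limma). Slc38a4, a sodium-coupled carrier of neutral amino acids, had 6.76, 6.82 and 6.60 against 6.38, 6.49 and 6.10 (-0.40 ± 0.13, SE). Slc16a10, a carrier of aromatic amino acids, and Slc43a2, a carrier of large neutral ones, differed by -0.41 ± 0.14 and -0.36 ± 0.13 (SE). The other separate carriers were Slc1a2, for glutamate (-0.43 ± 0.18, SE), and Slc25a22, for glutamate in mitochondria (-0.29 ± 0.15, SE). The count of 4 was 2 with centring on the median and 2 when corn oil replicate 3, or TCEP replicate 2 or 3, was dropped. It was 1 when corn oil replicate 2 was dropped.

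**Figure D4:**
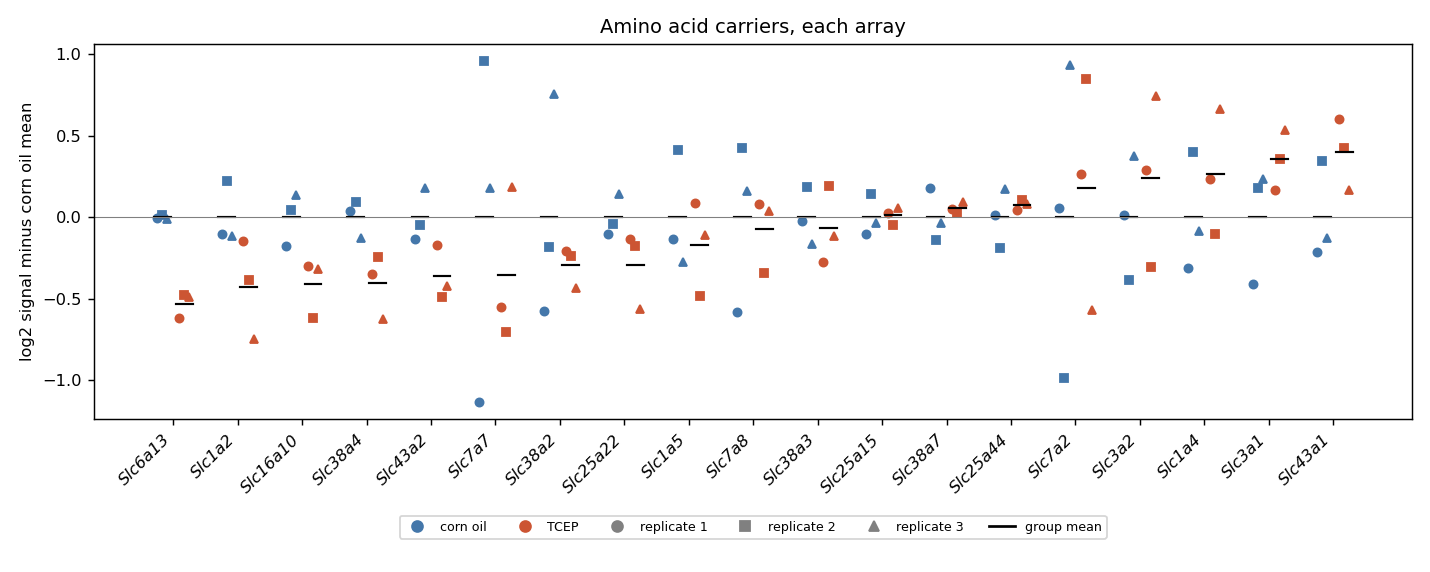
Log2 signal of the 19 measured amino acid carriers on each array, as the distance from the corn oil mean of the gene, ordered by difference. Points are animals, marker shapes are replicate numbers, colours are groups and black bars are group means. Slc6a13 has tight corn oil points and all TCEP points below them, with a mean distance of -0.53, and Slc43a1, at 0.40, has the highest mean distance.

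Regulators of these enzymes and their response genes gave 0 of 27 measured at an unadjusted p under 0.05 (limma), against 9.2% of all genes. None passed over all genes, and 12 had higher and 15 lower means. The median standard error of this list was 0.25, against 0.14 over all genes, so the count does not show that they were unchanged. The glucagon receptor Gcgr differed by -0.15 ± 0.15 and the stress factor Atf4 by 0.29 ± 0.21 (SE). The glucocorticoid receptor Nr3c1 had 2.02, 2.06 and 1.71 in corn oil and 2.23, 2.00 and 1.98 in TCEP (0.14 ± 0.13, SE). Fkbp5, a known glucocorticoid target, had 1.05, 1.68 and 4.45 in corn oil and 1.25, 2.17 and 1.48 in TCEP. One animal, corn oil replicate 3, stood above the others for Fkbp5 (difference -0.76 ± 0.87, SE), and the same animal was the highest of all 6 for Tat and Tdo2. It was not so for Hal and Sds. For Hal that animal was the lowest in corn oil, at 5.86. For Sds it had 0.90, below corn oil replicate 2 (2.64) and TCEP replicate 1 (3.36). A link between these genes was not tested. Nr3c1 and Fkbp5 were picked out after their values were seen.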

How the data were processed

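Liver RNA of 6 rats, 3 per group, was labelled with Cy3 and hybridised to Agilent arrays. The deposited scanner files hold background-subtracted intensity values per spot on a linear scale, made by the authors with Agilent Feature Extraction 10.7.1.1, per the file headers. The authors' deposited values are a ratio of each spot's signal to the 75th percentile of its array, linear and not centred by gene, as a comparison with the scanner values showed. The column medians were 0.1, 0.104 and 0.0962 in corn oil and 0.0956, 0.0972 and 0.0953 in TCEP. Any further step of theirs is not given in the sources used here.

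Log2 signals minus the array's 75th percentile over 61657 non-control probes were computed here, and 64 spots with outlier flags were set to missing. A probe was kept when well above background on all arrays of 1 group (37043 probes). Symbols came from RefSeq (GRCr8) through transcript accessions, and a gene is its kept probe with the highest mean. Of the members 16 had several probes, and those of Agxt and Cbs disagreed in sign. The group difference was tested two-sided by limma 3.58.1 in R 4.3.3 (lmFit, eBayes), and p-values were adjusted by Benjamini-Hochberg over 27642 genes, with a threshold of 0.05. The fit was tested on simulated data. The members, the lists and the rule for named genes (all members, and from each list up to 6 genes at an unadjusted p under 0.05 and the 2 brightest) were chosen with earlier results of these data known. Normexp (offset 50), an alternative, took each spot's median signal, as no mean signal was among the columns used here. Some genes that the rule would name are not reported here.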

Additional observations from a re-analysis of the deposited data

How the results depend on the processing

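No gene passed an adjusted p of 0.05 in limma in any of the 18 alternatives (scaling, background correction, value table, filters, probe rule, variance prior, slide, scan day, replicate number, outlier flags and each array left out), while 2543 genes had an unadjusted p under 0.05, from 1605 to 3213 with 1 array left out. The smallest adjusted p of a member was 0.285, with normexp. Members with a higher mean numbered 24, 15 with quantile normalization and 17 to 24 with 1 array left out. Members at an unadjusted p under 0.05 numbered 2 to 4 throughout. The 18 were not all distinct: scan day as a block gave the same results as leaving out corn oil replicate 2. The deposited value table gave nearly the main values. The alternatives for the carriers, the other enzymes and the branched-chain counts were added after the data were seen. Carriers that were lower at that threshold numbered 4, 2 with centring on the median, 1 with scan day as a block, and 1 to 5 with 1 array left out. Other enzymes at that threshold numbered 6, 2 with quantile normalization, 3 with no filter on dim probes, 2 with scan day as a block, and 1 to 4 with 1 array left out.

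Of the 34 members 19 changed sign in at least 1 alternative and 15 did not. The replicate numbers are shared by the groups. The same-numbered arrays did not deviate together (correlations of -0.05, -0.16 and -0.015), and no corn oil array correlated best with its own number. With 3 arrays per group these correlations cannot exclude a pairing, and the main fit used none. With the replicate block 2 members, 3 other enzymes and 1901 genes had an unadjusted p under 0.05. The bounds of a difference are set by 3 arrays per group, and slide and treatment cannot be told apart for the TCEP arrays. Arrays limit precision by their number, and every member was well above background.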
